A study of Mus musculus with 4 samples.

Results

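The 8 genes described here encode proteins that take part in the choice of a muscle fiber between glucose and fatty acids as fuel: the pyruvate dehydrogenase (PDH) kinases *Pdk1*, *Pdk2*, *Pdk3* and *Pdk4*, the PDH phosphatase *Pdp1*, the mitochondrial carriers *Ucp2* and *Ucp3*, and the lipoprotein lipase inhibitor *Angptl4*. They are 8 of 22252 gene names in the RNA-seq data, and all of them had counts above 0 in all 4 libraries, as did 14206 gene names in total. The genes were chosen by name with earlier results of these 4 libraries in view, so their levels and changes are a description and were not tested.

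Gastrocnemius muscle, a mixed calf muscle, was taken from male C57BL/6J mice at 7 weeks of age in 4 groups. Mice of all 4 groups carried loxP sites on both alleles of *Nr3c1*, the gene of the glucocorticoid receptor (GR), around exon 3, which codes for the DNA-binding domain. The lean GRf/f mice (GR Flox+/+ Cre-/- *Lep*+/+) and the *ob/ob* GRf/f mice (GR Flox+/+ Cre-/- Lepob/ob) had no Cre. The lean GRmKO mice (GR Flox+/+ Cre+/- *Lep*+/+) and the *ob/ob* GRmKO mice (GR Flox+/+ Cre+/- Lepob/ob) carried 1 copy of Acta1-Cre, which is active in muscle fibers from development onward, so other cells in the muscle keep the receptor. The *ob/ob* mice lack leptin, overeat and become obese. Each group is represented by 1 library made from the combined RNA of 3 mice, which leaves the spread between mice unmeasured. Whether the mice were fed or fasted when the muscle was taken is not given in the sources used here.

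Entry of pyruvate into the mitochondrial citric acid cycle depends on PDH. The 4 kinases phosphorylate PDH and switch it off, and the phosphatase PDP1 removes the phosphate and switches it on again. In fasting muscle, *Pdk4* is induced through FOXO and PPAR transcription factors and by glucocorticoids, and insulin represses it, so that glucose is spared while fatty acids are burned. *Ucp3*, a carrier of the inner mitochondrial membrane found mostly in skeletal muscle, is induced by fasting and fatty acids in the same setting, and *Angptl4*, a secreted protein that blocks the uptake of fatty acids from plasma triglycerides, is a target of PPARs and of GR.

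The genes lie at the following places of the mouse genome (GRCm38, GENCODE annotation). *Pdk1* spans chr2:71873224-71903858 on the plus strand, *Pdk2* chr11:95026258-95041354 on the minus strand, *Pdk3* chrX:93764607-93832201 on the minus strand and *Pdk4* chr6:5483351-5496309 on the minus strand. *Pdp1* spans chr4:11958184-11966452 and *Angptl4* chr17:33773750-33781830, both on the minus strand. *Ucp3* spans chr7:100472990-100486432 and *Ucp2* chr7:100493337-100502020, both on the plus strand, so that these carrier genes are neighbors with 6904 bases between them.

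RefSeq promoter sequences (GRCm38.p6) were available for 6 of the 8 genes, and *Pdp1* and *Angptl4* were not among them. Since both genes were lowest in *ob/ob* GRf/f muscle, the sequences of *Pdk4* and *Ucp3* are shown, without stretches inside the annotated genes. Both were searched on both strands for AGAACA, part of the glucocorticoid response element, for GTAAACA, a FOXO motif, and for AGGTCA, the part of a site that nuclear receptors such as PPARs read. Matches are in capitals. The *Pdk4* sequence covers 219 bases, chr6:5496310-5496528 on the minus strand, and the *Ucp3* sequence 249 bases, chr7:100472741-100472989 on the plus strand.
Pdk4: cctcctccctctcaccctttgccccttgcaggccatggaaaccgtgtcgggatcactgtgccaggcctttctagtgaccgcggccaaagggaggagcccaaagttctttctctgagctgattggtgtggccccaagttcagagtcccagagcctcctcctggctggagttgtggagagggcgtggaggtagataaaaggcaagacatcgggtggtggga
Ucp3: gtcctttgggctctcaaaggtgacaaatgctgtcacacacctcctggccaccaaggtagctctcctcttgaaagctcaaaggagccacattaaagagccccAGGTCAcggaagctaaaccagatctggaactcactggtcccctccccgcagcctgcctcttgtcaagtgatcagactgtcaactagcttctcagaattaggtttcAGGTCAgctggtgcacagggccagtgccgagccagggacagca
The *Ucp3* sequence held AGGTCA in 2 places, at positions -149 to -144 and -44 to -39 from the RefSeq start site, and no match to the other motifs. The *Pdk4* sequence held none of the 3 motifs. Of the promoters of *Pdk1*, *Pdk2*, *Pdk3* and *Ucp2*, only a second, internal start site of *Pdk1* had a match, 2 copies of AGAACA. Of 32851 promoters of 250 bases, 16.1% held AGAACA, 3.17% GTAAACA and 14.0% AGGTCA. A match is a string of letters and not a measured binding site, and the absence of one covers only these bases.

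Library totals were 19897754 to 20959781 expected counts, and a count of 3 corresponded to 0.143 to 0.151 CPM (counts of a gene scaled to a common library total). The muscle fiber markers *Ckm*, *Acta1*, *Mylpf*, *Tnnt3* and *Tnni2* summed to between 74569 and 76881 CPM. *Nr3c1*, the targeted gene, was at 124.9 and 101.8 CPM in the lean and *ob/ob* GRf/f libraries and at 67.0 and 39.1 CPM in the lean and *ob/ob* GRmKO libraries, although most of its transcript lies outside the floxed exon. *Fkbp5*, a direct GR target, was 3.89-fold lower in lean and 4.06-fold lower in *ob/ob* GRmKO muscle. Confidence intervals below are 95% intervals of the counts (exact Poisson for a level, exact binomial for a ratio of 2 libraries) and cover counting error only.

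**Figure D1:**
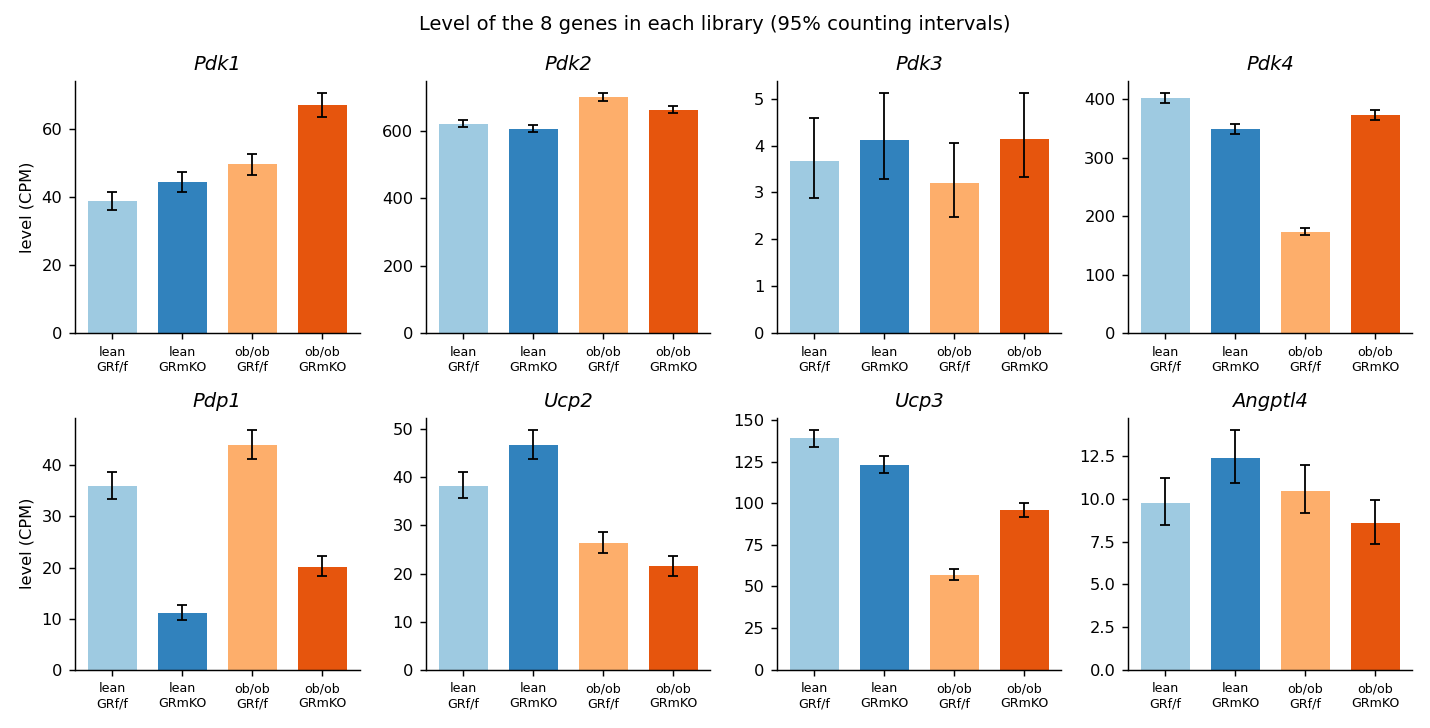
Levels of the 8 genes in the 4 libraries (vertical axes, CPM, each starting at 0). Bars are single libraries of pooled RNA from 3 mice, and lines are 95% counting intervals. *Pdk4* and *Ucp3* were lowest in *ob/ob* GRf/f muscle, and *Pdp1* was lower in both GRmKO libraries than in both GRf/f libraries.

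*Pdk4*, the kinase that fasting induces, was low in a single library. Its level was 402 CPM in lean GRf/f, 349 CPM in lean GRmKO, 173 CPM in *ob/ob* GRf/f and 372 CPM in *ob/ob* GRmKO muscle. The *ob/ob* GRf/f library thus held *Pdk4* at less than each of the other libraries, and the next lowest library was 2.01-fold higher. In mice with intact GR, *Pdk4* was 2.32-fold lower in *ob/ob* muscle than in lean muscle (log2 fold change -1.21, interval -1.27 to -1.16). Without GR in the fibers, the same comparison gave 0.09 (0.05 to 0.14). Loss of GR went with a log2 change of -0.20 (-0.25 to -0.16) in lean and of 1.10 (1.05 to 1.16), a 2.15-fold higher level, in *ob/ob* muscle. Both changes past 2-fold rest on the *ob/ob* GRf/f library. The change from lean to *ob/ob* differed by 1.31 log2 units (1.23 to 1.38) between GRmKO and GRf/f muscle. A difference at least as high was found in 26 of the 7773 genes with a mean of at least 10 CPM, or 0.334%. The share at least as far in the direction of the member was 13.6% for *Pdk1*, 49.8% for *Pdk2*, 3.28% for *Pdp1*, 8.72% for *Ucp2*, 1.03% for *Ucp3* and 7.40% for *Angptl4*. The members were chosen with these results known, so nothing is read from these shares.

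The other kinases did not share this pattern. *Pdk2*, the kinase with the highest level per length, was at 621 CPM in lean GRf/f, 607 CPM in lean GRmKO, 701 CPM in *ob/ob* GRf/f and 663 CPM in *ob/ob* GRmKO muscle. The highest and the lowest of these differed by 1.16-fold, and both *ob/ob* libraries were above both lean libraries. *Pdk1* was at 38.7, 44.2, 49.5 and 66.8 CPM in the same order, highest in *ob/ob* GRmKO muscle. Its log2 change from lean to *ob/ob* was 0.35 (0.22 to 0.49) with GR and 0.60 (0.47 to 0.72) without GR. *Pdk3*, which is scarce in muscle, was at 3.67, 4.12, 3.20 and 4.15 CPM. The counting intervals of its 4 log2 changes all included 0, so no difference in *Pdk3* was detectable at this depth.

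Levels of different kinases were compared per kilobase of the listed transcript. On this scale, *Pdk2* made up 69.0% of the summed kinase level in lean GRf/f, 70.9% in lean GRmKO, 83.7% in *ob/ob* GRf/f and 70.8% in *ob/ob* GRmKO muscle. The share of *Pdk4* was 28.7%, 26.3%, 13.4% and 25.6%. The ratio of *Pdk2* to *Pdk4* was therefore between 2.40 and 2.76 in 3 libraries and 6.27 in *ob/ob* GRf/f muscle. *Pdk1* took from 1.86% to 3.09% and *Pdk3* from 0.405% to 0.512%. The summed level of the 4 kinases ranged only from 373 CPM per kb in *ob/ob* GRf/f to 417 CPM per kb in *ob/ob* GRmKO muscle.

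**Figure D2:**
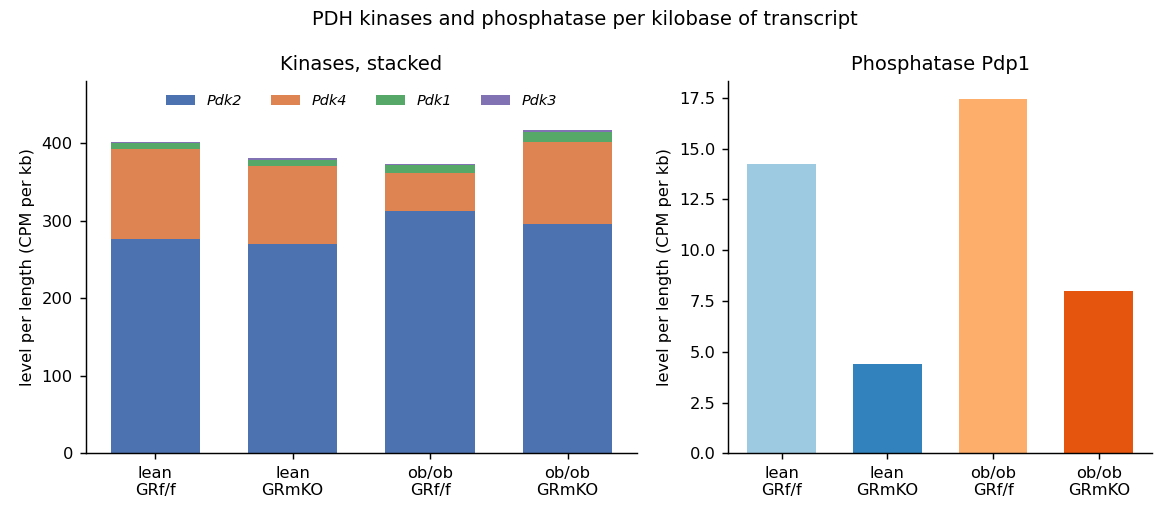
Left, summed level of the 4 PDH kinases per length (CPM per kb of the listed transcript), stacked by gene for each library. Right, level per length of the phosphatase *Pdp1*, on its own axis. *Pdk4* made up 13.4% of the kinase sum in *ob/ob* GRf/f muscle and at least 25.6% in the other libraries, and *Pdp1* was lowest in lean GRmKO muscle.

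*Pdp1*, the opposing phosphatase, followed the GR genotype instead. Its level was 36.0 CPM in lean GRf/f, 11.1 CPM in lean GRmKO, 44.1 CPM in *ob/ob* GRf/f and 20.2 CPM in *ob/ob* GRmKO muscle. Both GRmKO libraries were below both GRf/f libraries. Loss of GR went with a 3.24-fold lower level in lean muscle (log2 -1.70, interval -1.92 to -1.48) and a 2.18-fold lower level in *ob/ob* muscle (-1.13, -1.29 to -0.96). Of the 7773 genes with a mean of at least 10 CPM, 10 were at least as much lower as *Pdp1* in lean GRmKO muscle, *Pdp1* included. Nothing is read from this count, for the same reason as for *Pdk4*. From lean to *ob/ob*, *Pdp1* was higher by a log2 change of 0.29 (0.15 to 0.43) with GR and 0.86 (0.62 to 1.10) without GR. The summed kinase level per kb was 28.2 times that of *Pdp1* in lean GRf/f, 86.6 times in lean GRmKO, 21.4 times in *ob/ob* GRf/f and 52.2 times in *ob/ob* GRmKO muscle. With the longest protein-coding transcript of *Pdp1* as its length, the same ratios were 46.9, 144, 35.6 and 86.8. Adipocyte markers were lower with GR loss too, 7 of 7 in lean and 7 of 7 in *ob/ob* muscle, with a sum of 996 CPM in lean GRf/f, 644 CPM in lean GRmKO, 573 CPM in *ob/ob* GRf/f and 354 CPM in *ob/ob* GRmKO muscle. Unlike *Pdp1*, this sum was lower in *ob/ob* GRf/f than in lean GRmKO muscle, but the single markers differed in this. *Cfd* was at 145 CPM in lean GRmKO and 14.4 CPM in *ob/ob* GRf/f muscle, and *Fabp4* and *Retn* were also lower in *ob/ob* GRf/f muscle. *Adipoq*, *Plin1*, *Cidec* and *Lep* were higher in *ob/ob* GRf/f than in lean GRmKO muscle, as was *Pdp1*. The part of adipocytes in the *Pdp1* values was not tested.

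The *Pdp1* values carry a limit that lies in the annotation. Each gene name is listed with 1 transcript, and the sources used here do not settle whether a value is the sum over the transcripts of a gene or the value of the listed transcript alone. For *Pdp1*, *Ucp2*, *Angptl4*, *Pdk4* and *Ucp3*, each with over 1 annotated transcript, a level in CPM may therefore be that of 1 transcript. *Pdp1* has 6 protein-coding transcripts, of which 1 other is within 2% of the length of the listed one. Among genes with a mean of at least 10 CPM and such a near twin in length, 3.76% were past 2-fold between the lean genotypes, against 0.947% of genes with 1 protein-coding transcript. Whether reads of *Pdp1* were divided differently among its transcripts in these libraries was not tested. *Pdk1*, *Pdk2* and *Pdk3* have 1 protein-coding transcript each, and *Pdk4* and *Ucp3* have 2 each, none close in length to the listed one.

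*Ucp3* moved in the same direction as *Pdk4*, except from lean to *ob/ob* muscle without GR. Its level was 139 CPM in lean GRf/f, 123 CPM in lean GRmKO, 57.0 CPM in *ob/ob* GRf/f and 96.0 CPM in *ob/ob* GRmKO muscle. As for *Pdk4*, *ob/ob* GRf/f muscle had the lowest level, and the next lowest library was 1.69-fold higher. With GR, *Ucp3* was 2.44-fold lower in *ob/ob* muscle than in lean muscle (log2 -1.29, interval -1.38 to -1.19). Without GR, the log2 change was -0.36 (-0.44 to -0.27), so *Ucp3* in *ob/ob* GRmKO muscle was below both lean libraries, whereas *Pdk4* lay between them. GR loss went with a log2 change of -0.17 (-0.25 to -0.10) in lean and 0.75 (0.65 to 0.86) in *ob/ob* muscle. The change from lean to *ob/ob* differed by 0.93 (0.80 to 1.06) between GRmKO and GRf/f. Of the 7773 genes, 1.03% showed a difference at least as high, from which nothing is read.

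*Ucp2*, the carrier encoded next to *Ucp3*, is found in many cell types and is abundant in macrophages. It was at 38.2 CPM in lean GRf/f, 46.8 CPM in lean GRmKO, 26.4 CPM in *ob/ob* GRf/f and 21.5 CPM in *ob/ob* GRmKO muscle. Both *ob/ob* libraries were below both lean libraries. The log2 change from lean to *ob/ob* was -0.54 (-0.70 to -0.38) with GR and -1.12 (-1.29 to -0.96), or 2.17-fold lower, without GR. The call past 2-fold is lost with TMM factors, with which the change was -0.91. GR loss went with 0.29 (0.15 to 0.43) in lean and -0.29 (-0.48 to -0.11) in *ob/ob* muscle. Per kb, *Ucp3* was 5.92 times as abundant as *Ucp2* in lean GRf/f, 4.29 times in lean GRmKO, 3.52 times in *ob/ob* GRf/f and 7.26 times in *ob/ob* GRmKO muscle. *Ucp2* has 5 protein-coding transcripts, none other within 2% of the length of the listed one.

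Markers of leukocytes moved with *Ucp2*. *Adgre1*, *Cd68*, *Csf1r*, *Cd14*, *Lyz2* and *Ptprc* summed to 330 CPM in lean GRf/f, 436 CPM in lean GRmKO, 215 CPM in *ob/ob* GRf/f and 161 CPM in *ob/ob* GRmKO muscle, the same order as that of *Ucp2*. All 6 were lower in *ob/ob* muscle than in lean muscle in both genotypes, 5 of them past 2-fold in GRmKO muscle, and all 6 were higher in lean GRmKO than in lean GRf/f muscle. The 4 endothelial markers (*Pecam1*, *Cdh5*, *Kdr* and *Tie1*) summed to 446, 522, 353 and 321 CPM in the same order. In a whole muscle, fewer cells of a type and less RNA per cell cannot be told apart, and the part of these cells in the *Ucp2* values was not tested. *Ucp1*, the carrier of brown fat, was at most 0.145 CPM and at 0 in both GRmKO libraries.

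**Figure D3:**
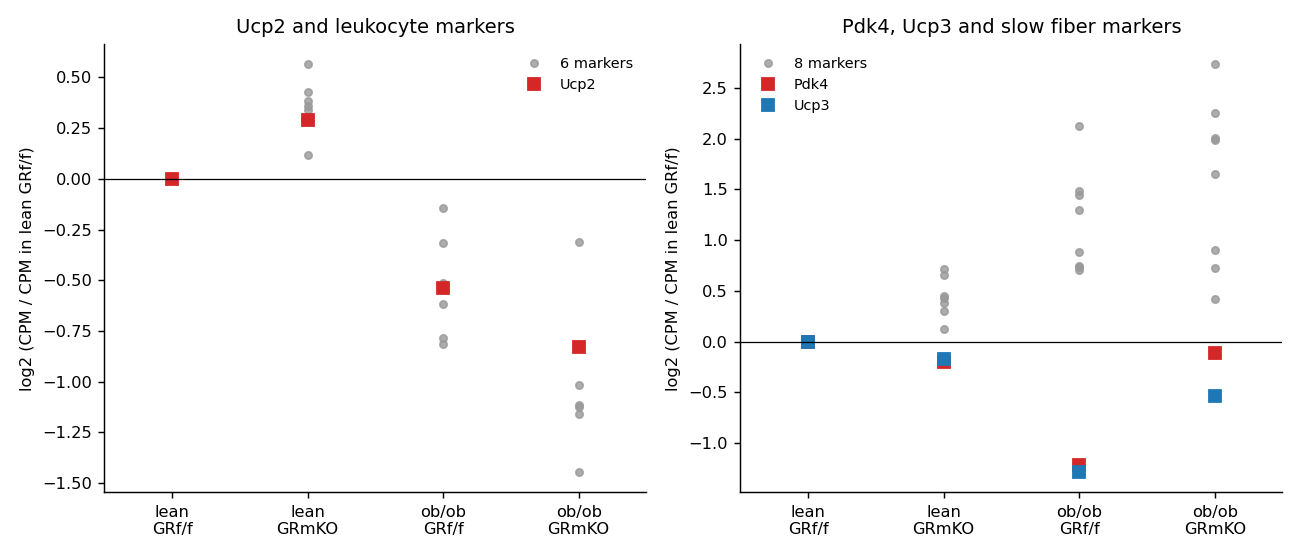
Log2 of the level in each library over that in lean GRf/f muscle (CPM). Left, *Ucp2* (square) and 6 leukocyte markers (circles). Right, *Pdk4* and *Ucp3* (squares) and 8 slow fiber markers (circles). *Ucp2* stood within the range of the leukocyte markers in the 3 other libraries, whereas *Pdk4* and *Ucp3* were below 0 in both *ob/ob* libraries, in which all 8 slow fiber markers were above 0.

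Fiber type markers were set beside *Pdk4* and *Ucp3*. The 8 slow fiber markers (*Myh7*, *Myl2*, *Myl3*, *Tnnt1*, *Tnni1*, *Tnnc1*, *Atp2a2* and *Myoz2*) summed to 561 CPM in lean GRf/f, 692 CPM in lean GRmKO, 1174 CPM in *ob/ob* GRf/f and 1565 CPM in *ob/ob* GRmKO muscle. They were thus high in both *ob/ob* libraries, while *Pdk4* was low in only 1 of them. The fast fiber myosins *Myh2*, *Myh1* and *Myh4* summed to 24888, 22202, 31981 and 41078 CPM. The liver markers *Alb*, *Apoa1* and *Ttr* were scarce, at a sum of 6.55, 13.1, 5.25 and 24.3 CPM. *Alb*, the most abundant of them, was at 4.63, 11.1, 4.63 and 21.5 CPM in the same order of libraries. *Apoa1* was at 1.06, 1.05, 0.143 and 1.29 CPM and *Ttr* at 0.866, 0.904, 0.477 and 1.53 CPM. All 3 were past 2-fold higher in *ob/ob* GRmKO than in *ob/ob* GRf/f muscle, as was *Pdk4*. The sum was higher in both GRmKO libraries than in both GRf/f libraries, whereas *Pdk4* and *Ucp3* were highest in lean GRf/f muscle. The part of fiber type or of RNA from other tissue in the *Pdk4* and *Ucp3* values was not tested.

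*Angptl4* was the least changed member outside the kinases, at a low level. It was at 9.79 CPM in lean GRf/f, 12.4 CPM in lean GRmKO, 10.5 CPM in *ob/ob* GRf/f and 8.58 CPM in *ob/ob* GRmKO muscle. The highest and the lowest library differed by 1.45-fold. The log2 change from lean to *ob/ob* was 0.10 (-0.18 to 0.38) with GR and -0.53 (-0.82 to -0.25) without GR, and GR loss went with 0.34 (0.07 to 0.62) in lean and -0.29 (-0.58 to 0.00) in *ob/ob* muscle. The transcript listed for *Angptl4* is annotated by GENCODE as subject to nonsense-mediated decay, while the protein-coding transcript of the gene is longer, at 3308 bases against 1859 bases. Whether reads of the protein-coding transcript are in this row was not tested. Adipocytes are a rich source of *Angptl4*, and the 7 adipocyte markers (*Adipoq*, *Plin1*, *Cidec*, *Cfd*, *Fabp4*, *Retn* and *Lep*) summed to 996, 644, 573 and 354 CPM in the same order of libraries. *Angptl4* and this sum were both lowest in *ob/ob* GRmKO muscle, but the sum was highest in lean GRf/f and *Angptl4* in lean GRmKO muscle, and the part of adipocytes was not tested.

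**Figure D4:**
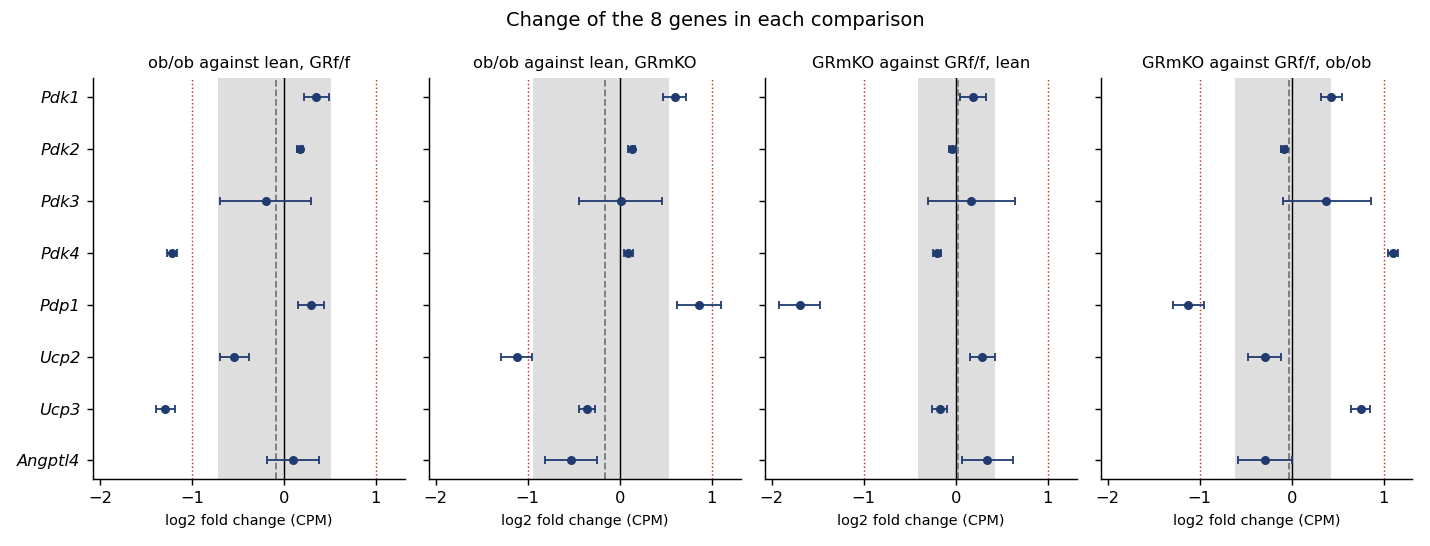
Log2 fold changes (CPM) of the 8 genes in the 4 comparisons, with 95% counting intervals. Grey bands hold the middle 90% of the 7773 genes with a mean of at least 10 CPM, dashed lines are their medians, and dotted lines mark 2-fold. *Pdk4* and *Ucp3* are past 2-fold in *ob/ob* against lean GRf/f muscle, *Ucp2* in *ob/ob* against lean GRmKO muscle, *Pdp1* in both comparisons of the genotypes and *Pdk4* also in *ob/ob* GRmKO against *ob/ob* GRf/f muscle.

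The members past 2-fold were counted beside all genes in each comparison. These comparisons share libraries and are not independent. In *ob/ob* against lean GRf/f muscle, 0 members were past 2-fold higher and 2 of 8 lower (*Pdk4* and *Ucp3*), beside 3.40% of the 14206 genes higher and 6.98% lower. Of the 7773 genes with a mean of at least 10 CPM, which 7 of the 8 members reached, 1.14% were higher and 1.56% lower. In *ob/ob* against lean GRmKO muscle, 0 members were higher and 1 lower (*Ucp2*), beside 3.41% and 10.8% of the 14206 genes and 1.07% and 4.16% of the 7773 genes. In lean GRmKO against lean GRf/f muscle, 0 members were higher and 1 lower (*Pdp1*), beside 4.13% and 3.56% and, in the smaller set, 0.579% and 0.708%. In *ob/ob* GRmKO against *ob/ob* GRf/f muscle, 1 member was higher (*Pdk4*) and 1 lower (*Pdp1*), beside 4.05% and 4.99% and, in the smaller set, 0.746% and 1.25%. Since the members were chosen with these results known, nothing is read from the shares. The median log2 change of the 8 members lay between -0.05 and 0.15 in the 4 comparisons, and they did not move as a group.

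TMM factors moved the median of all genes by 0.11 log2 units in *ob/ob* against lean GRf/f and by 0.21 in *ob/ob* against lean GRmKO muscle. Relative to the median gene, the change of *Pdk4* was -1.10 and that of *Ucp3* -1.17 in *ob/ob* against lean GRf/f muscle, and *Ucp2* was at -0.91 and *Pdp1* at 1.07 in *ob/ob* against lean GRmKO muscle. In the comparisons of the genotypes, *Pdp1* was at -1.74 in lean and -1.09 in *ob/ob* muscle, and *Pdk4* at 1.14 in *ob/ob* muscle. Of all genes past 2-fold, 32.8% were higher in *ob/ob* GRf/f against lean GRf/f muscle with CPM and 44.8% with TMM factors, and 23.9% and 42.7% in GRmKO muscle. The directions of the members past 2-fold did not depend on the scaling.

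Genes with a low level in only 1 library were counted after the data had been seen, so nothing is read from the shares. Of the 7773 genes, 54 (0.695%) were lowest in *ob/ob* GRf/f muscle by at least 1.5-fold below the next library, *Pdk4* and *Ucp3* among them. The same was true of 0.643% of genes in lean GRf/f, 0.450% in lean GRmKO and 2.60% in *ob/ob* GRmKO muscle. *Pdp1* was among those of lean GRmKO muscle, with the next lowest library 1.82-fold higher. The genes whose profile over the 4 libraries was nearest to that of *Pdk4*, by the Euclidean distance of centred log2 CPM, were *Rnf25*, *Atp2c1*, *Paics*, *Sema4c* and *Gm47283*, at distances of 0.0973 to 0.247. *Rnf25*, for example, was at 13.8, 12.2, 5.96 and 11.9 CPM in the order used above. Nearest to *Ucp3* were *Vps29*, *Bclaf1*, *Sltm*, *Ino80e* and *Atp2c1* (0.0694 to 0.199), and nearest to *Angptl4* were *Rab6b*, *Pdgfrb*, *Txnl4a*, *Ilk* and *Tceal8* (0.0201 to 0.0522). With 4 libraries, such likeness is a description only, and the same 5 genes were found for each with TMM factors.

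The genes around the members were followed as lists. Of 7 further genes of the PDH complex and its regulation, none was past 2-fold in any comparison, and 6 of 7 were higher in *ob/ob* muscle in both genotypes. *Pdha1*, the catalytic subunit that the kinases phosphorylate, was at 513 CPM in lean GRf/f, 475 CPM in lean GRmKO, 616 CPM in *ob/ob* GRf/f and 594 CPM in *ob/ob* GRmKO muscle. The log2 changes of *Pdhb*, *Dlat* and *Dld*, further subunits of the complex, lay between 0.10 and 0.36 from lean to *ob/ob*. The median of the list was 0.14 with GR and 0.28 without GR, against -0.11 and -0.21 for all genes. *Pdp2*, the other phosphatase, was at 6.47, 7.90, 4.86 and 4.62 CPM, without the drop of *Pdp1* in GRmKO muscle. The kinase and the phosphatase of the related branched-chain complex showed no such drop either, with 0 of 5 genes of that list past 2-fold in any comparison. All 5 were higher in *ob/ob* GRmKO than in *ob/ob* GRf/f muscle, with a median log2 change of 0.09. *Bckdk*, that kinase, was at 107, 108, 89.3 and 111 CPM, lowest in *ob/ob* GRf/f muscle as *Pdk4* was, though by less. The log2 changes of *Bckdha*, *Bckdhb* and *Dbt*, subunits of the complex, lay between -0.27 and 0.15 in the 4 comparisons.

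Among 9 genes that handle pyruvate, lactate and alanine, none was past 2-fold between *ob/ob* and lean muscle. In GRmKO against GRf/f, 1 was lower in lean and 2 were lower in *ob/ob* muscle. *Pcx*, the pyruvate carboxylase, was at 112 CPM in lean GRf/f, 54.4 CPM in lean GRmKO, 68.8 CPM in *ob/ob* GRf/f and 36.7 CPM in *ob/ob* GRmKO muscle, a log2 change with GR loss of -1.04 in lean and -0.90 in *ob/ob* muscle. *Slc16a3*, which exports lactate, was at 338, 213, 416 and 183 CPM (-0.67 and -1.19), and *Gpt*, an alanine aminotransferase, at 15.9, 11.6, 22.5 and 10.7 CPM (-0.46 and -1.07). *Gpt2*, the mitochondrial alanine aminotransferase, changed by -0.64 and -0.62. All 7 adipocyte markers were also lower with GR loss, with medians of -0.85 (lean) and -0.73 (*ob/ob*) on the log2 scale. Their sum was highest in lean GRf/f and lowest in *ob/ob* GRmKO muscle, as was *Pcx*, and the part of adipocytes in these values was not tested. *Ldha*, at 2326 to 2504 CPM, and *Mpc1*, a subunit of the mitochondrial pyruvate carrier, changed by between -0.10 and 0.04 with GR loss.

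Of 6 relatives of the uncoupling proteins among the mitochondrial carriers, *Slc25a30* stood out. It was at 30.4 CPM in lean GRf/f, 10.8 CPM in lean GRmKO, 7.29 CPM in *ob/ob* GRf/f and 5.14 CPM in *ob/ob* GRmKO muscle, with log2 changes from lean to *ob/ob* of -2.06 with GR and -1.07 without GR, and of -1.49 with GR loss in lean muscle. Unlike *Pdk4* and *Ucp3*, it was not higher in *ob/ob* GRmKO than in *ob/ob* GRf/f muscle (-0.50). *Slc25a14* was also past 2-fold lower in *ob/ob* GRf/f muscle, at a mean of 0.956 CPM. The order of the libraries was the same for *Slc25a30* as for the sum of the adipocyte markers given above. Of these markers, *Cfd*, *Fabp4* and *Retn* had this order. *Adipoq*, *Plin1*, *Cidec* and *Lep* did not, being higher in *ob/ob* GRf/f than in lean GRmKO muscle. The part of adipocytes in the *Slc25a30* values was not tested. The adenine nucleotide carriers *Slc25a4* and *Slc25a5* and the carrier *Slc25a27* were past 2-fold in no comparison.

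Around *Angptl4*, the lipase itself, *Lpl*, was at 764, 660, 751 and 841 CPM. *Gpihbp1*, which anchors the lipase to capillaries, was at 68.8, 69.0, 40.6 and 35.1 CPM, with log2 changes from lean to *ob/ob* of -0.76 with GR and -0.97 without GR. All 4 endothelial markers were lower in *ob/ob* muscle too. *Vldlr* and *Lmf1* were not past 2-fold in any comparison. Of 13 regulators of the fasting response, among them the PPARs, PGC-1 coactivators and FOXO factors, none was past 2-fold in any comparison. *Foxo1*, which binds the *Pdk4* gene in fasting, was at 66.8, 38.7, 58.8 and 33.2 CPM, low in both GRmKO libraries. The part of these regulators in the *Pdk4* values was not tested. *Foxo4*, *Esrra* and *Rxra* changed by between -0.24 and 0.51 in the 4 comparisons.

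Of 15 fatty acid genes that respond to PPARs, 1 was past 2-fold higher in *ob/ob* against lean GRf/f and the same gene was past 2-fold lower in *ob/ob* GRmKO against *ob/ob* GRf/f muscle. That gene was *Plin5*, a lipid droplet protein of oxidative tissues, at 5.24, 5.67, 15.4 and 7.69 CPM, with log2 changes of 1.56 and, just past the threshold, -1.0035. *Plin5* was thus highest in *ob/ob* GRf/f muscle, the library in which *Pdk4* and *Ucp3* were lowest. *Cpt1b*, the muscle form of the enzyme that admits fatty acids to mitochondria, was at 329, 300.2, 364 and 371 CPM. *Hadha*, *Fabp3* and *Txnip* also stayed within 2-fold. The median of the list was 0.14 with GR and 0.27 without GR from lean to *ob/ob*, so the low *Pdk4* and *Ucp3* of *ob/ob* GRf/f muscle were not accompanied by low levels of this list.

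**Figure D5:**
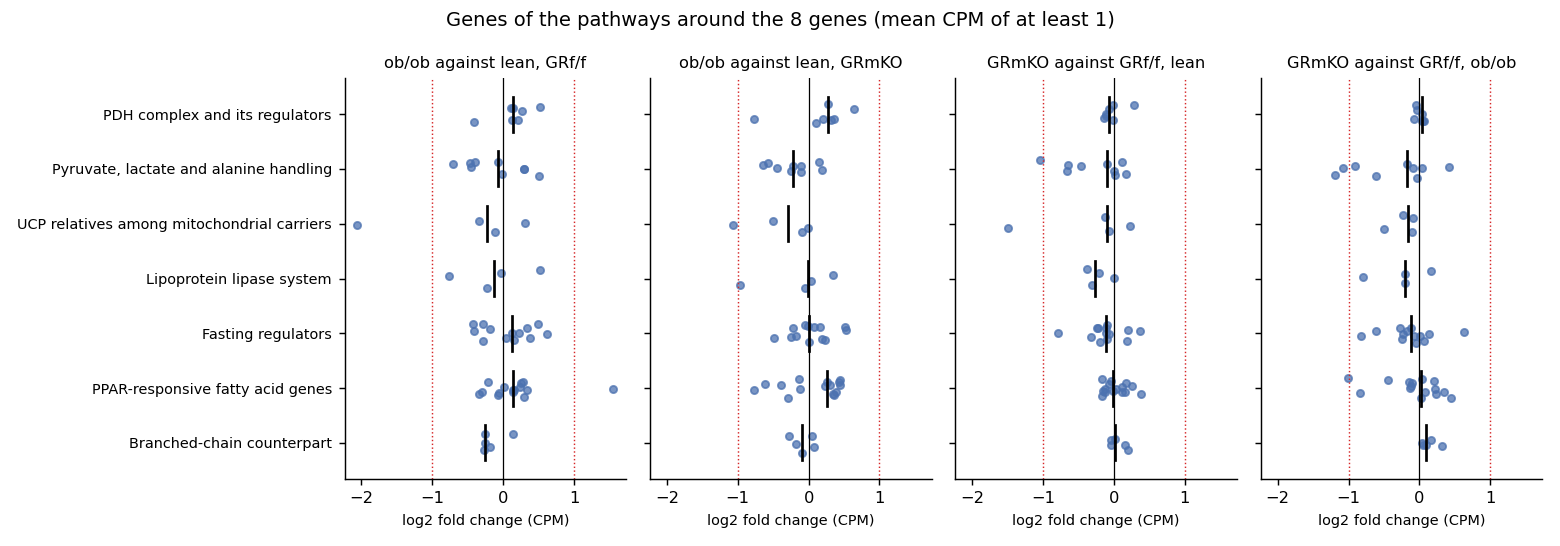
Log2 fold changes (CPM) of the genes of the 7 lists in the 4 comparisons, for genes with a mean of at least 1 CPM. Points are genes, black bars are medians of the points, and dotted lines mark 2-fold. The points past 2-fold are *Slc25a30*, *Plin5*, *Pcx*, *Slc16a3* and *Gpt*.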

How the data were processed

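Gastrocnemius RNA-seq of 4 groups was used, with 1 library of pooled RNA from 3 mice each. The authors quantified reads with Salmon 1.2.1 against protein-coding GENCODE transcripts and summarized them with tximport, scaled by length, in R 3.5.0, with duplicated names reduced to the most counted entry. The deposited values are estimated counts (expected counts, not whole numbers) for 22252 gene names with 1 transcript ID each, not normalized between libraries. Although tximport sums transcripts to genes, a row may hold the listed transcript only, and levels are called gene levels with that limit. Of these names, 5262 to 6468 were at 0 in a library, and the 50 most abundant took 45.3% to 48.3% of the counts.

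Counts were scaled to CPM over all gene names in Python 3.11.15 (numpy 2.4.6, pandas 2.3.3, scipy 1.17.1). Counts were rounded for intervals only, which are 95% exact Poisson intervals for levels, exact Clopper-Pearson intervals for ratios, and normal approximations for differences of changes. A gene was called past 2-fold, with no pseudocount. With 1 library per group, there is no test between groups. NOISeq, the method of the study, was not used, since its probabilities rest on simulated replicates. The steps were tested on simulated data.

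The members and the gene lists were chosen with earlier results of these data known. Genes named are the 8 members, *Nr3c1*, *Fkbp5* and *Lep*, the 4 most abundant genes of each list and those past 2-fold in any comparison with a mean of at least 1 CPM, the 5 nearest profiles to *Pdk4*, *Ucp3* and *Angptl4* among genes of at least 10 CPM, and markers beside a result. *Pdp2*, *Slc25a14* and *Ucp1* were named in addition, after their values were seen, and 1 gene of the lists is not reported here. Alternatives were edgeR 4.0.16 TMM factors and DESeq2 1.42.0 size factors (scaling only, on rounded counts, in R 4.3.3), upper quartile scaling, totals without the 50 most abundant genes, unscaled counts, 0.5 added to each count, a 1.5-fold threshold and other filters. Coordinates and transcripts are from GENCODE and promoters from RefSeq, both on GRCm38. The counts of genes low in 1 library were added after the data had been seen. Protein sequences were not used here. Figures were drawn with matplotlib 3.10.9.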

Additional observations from a re-analysis of the deposited data

Results flagged for a closer look

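In 3 genes, a change had opposite signs in the 2 groups in which it was measured, with counting intervals clear of 0 on both sides. With 1 library per group, none of these differences was tested. *Pdk4* was lower in *ob/ob* muscle than in lean muscle with GR and slightly higher without GR, a difference of 1.31 log2 units. The same value of 1.31 is the difference between its change with GR loss in *ob/ob* and in lean muscle, since both are made from the same 4 libraries. For *Ucp3*, GR loss went with a lower level in lean and a higher level in *ob/ob* muscle, a difference of 0.93. For *Ucp2*, the signs were the other way round, with a difference of -0.58.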

How the results depend on the processing

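Each group has 1 library, so no replicate could be left out, and no paired analysis was possible because no group has a second replicate. No member changed sign under any alternative tried. Under 0.5 added to each count, 32 of 32 member changes stayed within the counting interval, and 21 did under TMM factors and under DESeq2 size factors. In *ob/ob* against lean GRmKO muscle, TMM, DESeq2 and upper quartile scaling each gave 1 member past 2-fold higher (*Pdp1*) and 0 lower, in place of 0 and 1 (*Ucp2*). A 1.5-fold threshold gave 2 members higher in that comparison and 2 higher in *ob/ob* GRmKO against *ob/ob* GRf/f muscle. The percentage of all genes past 2-fold depended on the filter, by its construction. It was 6.24%, 3.63% and 4.98% at a mean of at least 1 CPM, 2.71%, 1.31% and 2.004% at 10 CPM, and 5.66%, 3.20% and 4.45% with at least 10 counts in every library, for *ob/ob* against lean GRf/f, GRmKO against GRf/f in lean, and GRmKO against GRf/f in *ob/ob* muscle. For *ob/ob* against lean GRmKO muscle, it was 5.23% at 10 CPM. At 1.5-fold, it was 24.5%, 17.2%, 20.8% and 31.8% in the same order. Whether any difference exceeds the variation between mice cannot be known from pooled libraries.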

Other observations

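Some marker lists stood apart without a known tie to the 8 genes. The erythroid markers *Hba-a1*, *Hbb-bs*, *Hbb-bt* and *Alas2* summed to 1551 CPM in lean GRf/f, 1451 CPM in lean GRmKO, 668 CPM in *ob/ob* GRf/f and 609 CPM in *ob/ob* GRmKO muscle. All 4 were past 2-fold lower in *ob/ob* muscle in both genotypes. *Cidea*, a brown fat marker, was at 3.03, 0.653, 0.716 and 1.82 CPM in the same order. *Lep* itself was at 14.1, 5.89, 69.6 and 42.1 CPM, higher in *ob/ob* muscle, whose mice lack functional leptin protein.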
